A study of Mus musculus with 4 samples.

Results

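Sorting schemes for mouse hematopoietic stem cells (HSCs) and multipotent progenitors read a small set of surface proteins, and the transcripts of 7 of their genes are described here: Slamf1 (CD150), Cd48, Cd34, Flt3, Procr (EPCR), Kit (c-Kit) and Ly6a (Sca-1). They were chosen by name out of the 28692 genes of the deposited matrices. The rule uses no measured value, but members and gene lists were chosen with earlier results of these data known. Hematopoietic stem and progenitor cells (HSPCs) had been sorted from the bone marrow of male C57BL/6-CD45.2 mice as cells without lineage markers that carry Sca-1 and c-Kit and lack Flt3. Cells were captured as 4 pools in droplets, and unique molecular identifiers (UMIs) were counted at the 3′ end of transcripts. Young mice were 2 to 3 months old and aged mice 17 to 18 months old. Young pool A held cells of 2 mice, young pool B of 3, aged pool A of 3 and aged pool B of 2, and the letters mark 2 facilities that each handled 1 young and 1 aged pool. For 2 pools, young B and aged A, a free-text note gives the opposite age, and titles and source names were followed here. The labels give no other treatment or allele for either age. Cells of the mice within a pool cannot be told apart, so the pool is the replicate and each age has n = 2. Where 2 values are given for an age, that of its pool A comes first.

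The members differ in what they do. Slamf1 and Cd48 encode receptors of the SLAM family of immune cells, and in the SLAM sorting scheme HSCs carry CD150 without CD48 whereas many progenitors carry CD48. Cd34, a sialomucin, and Flt3, the receptor tyrosine kinase for Flt3 ligand, are low on adult long-term mouse HSCs and appear on multipotent progenitors. Procr encodes the endothelial protein C receptor and is high on long-term HSCs. Kit, the receptor for stem cell factor, and Ly6a, a GPI-anchored protein of the Ly6 family, define together with the lack of lineage markers the gate in which HSCs and multipotent progenitors are found. Because Kit, Ly6a and Flt3 proteins set the sort, the levels of these 3 transcripts describe cells already selected on their products, and a transcript level is not a surface protein level.

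Slamf1 and Cd48 are neighbours on chromosome 1 of GRCm38. Cd48 spans positions 171682009 to 171705258 and Slamf1 positions 171767127 to 171801184, both on the plus strand, and the 61.9 kb between them hold 5 annotated genes, 0 of them protein coding. Cd34 lies on the plus strand of the same chromosome at 194938819 to 194961279, and Procr on the plus strand of chromosome 2 at 155751117 to 155755471. On chromosome 5, Kit lies on the plus strand at 75574916 to 75656722 and Flt3 on the minus strand at 147330741 to 147400489. Ly6a lies on the minus strand of chromosome 15 at 74994877 to 74998031. All 7 are protein-coding genes in GENCODE M21, and no 90-base stretch from the last 500 bases of their transcripts, where the reads of a 3′ library fall, occurred in a transcript of another gene. Since the differences upon aging of these neighbours had opposite signs, the 250 bases before their RefSeq start sites are shown (GRCm38.p6, plus strand, chr1:171766882-171767131 for Slamf1 and chr1:171681742-171681991 for Cd48). Capitals mark matches to the motifs searched.
Slamf1: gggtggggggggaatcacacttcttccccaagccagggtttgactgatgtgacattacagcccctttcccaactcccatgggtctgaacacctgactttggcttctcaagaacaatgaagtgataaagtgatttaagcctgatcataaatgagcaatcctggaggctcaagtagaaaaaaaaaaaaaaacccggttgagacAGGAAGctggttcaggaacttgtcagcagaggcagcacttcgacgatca
Cd48: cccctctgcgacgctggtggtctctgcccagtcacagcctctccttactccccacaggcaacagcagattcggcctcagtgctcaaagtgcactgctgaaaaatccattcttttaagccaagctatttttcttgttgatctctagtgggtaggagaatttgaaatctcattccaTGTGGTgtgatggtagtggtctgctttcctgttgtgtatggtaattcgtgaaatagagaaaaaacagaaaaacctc
The motifs were AGATAA (letters bound by GATA factors), TGTGGT (RUNX factors) and AGGAAG (ETS factors), each on both strands. Only these exact letters were searched, so variants such as the TGATAA in the Slamf1 window were not marked or counted. The Slamf1 window held 1 ETS match, 49 bases before the start, and the Cd48 window held 1 RUNX match, 76 bases before the start, with no overlap between motifs. Such letters occurred in 29.5% (ETS), 14.0% (RUNX) and 9.99% (GATA) of 32851 mouse promoter windows of this length, and a match describes the sequence only.

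The matrices held 15566 barcodes, of which 14915 (2244 to 5189 per pool) were kept by the filter on UMI count. Kept cells had a median of 5674 to 6719 UMIs, pools summed to between 16399999 and 36446168 UMIs, and pairs of pools shared 8 to 26 barcodes. Plasma cell transcripts set the aged pools apart. The summed level of 5 plasma cell genes was 439 and 312 counts per 1000000 UMIs (CPM) in the young pools and 4397 and 1970 in the aged pools, and 84.3% of the cells of aged pool A held at least 2 of the 5. The 5 B cell genes summed to between 51.3 and 53.1 CPM, with Ms4a1 under 1 CPM in every pool. Cd79b made up most of this sum (41.8 to 47.4 CPM per pool), and its members moved in opposite directions. Cd79a stood at 0.302 and 0.244 CPM in the young and 6.69 and 2.73 in the aged pools (log2 change 4.01, edgeR adjusted p = 0.0251). Ly6d stood at 7.11 and 5.37 CPM in the young and 2.98 and 2.31 in the aged pools. Leaving out the 331, 51, 983 and 132 cells of young A, young B, aged A and aged B with at least 2 of 5 B and plasma cell genes gave a log2 change upon aging of 2.11 for Slamf1, -2.05 for Cd48, -1.71 for Cd34 and -2.46 for Flt3, beside 2.13, -1.98, -1.67 and -2.46 with them. RNA outside cells is not removed by leaving out cells.

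For the SLAM pair, Slamf1 stood at 10.3 and 9.02 CPM in the young pools and at 42.5 and 45.5 in the aged pools. Both aged pools were high and both young pools low, with an aged over young fold of 4.13 at facility A and 5.04 at facility B. Cd48 stood at 76.8 and 69.5 CPM in the young pools and at 31.6 and 11.6 in the aged pools. Here the young pools were high and close together, and the aged pools were low and differed from each other, aged pool B being the lowest. In pooled counts, fewer cells with a transcript and less transcript per cell cannot be told apart.

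For the progenitor markers, Cd34 stood at 288 and 234 CPM in the young pools and at 117 and 61.0 in the aged pools. The ages did not overlap, and pool B was the lower at each age. Flt3 stood at 48.0 and 15 CPM in the young pools and at 10.5 and 2.40 in the aged pools. The ages did not overlap for Flt3 either, but the young pools lay further apart from each other than young pool B lay from aged pool A.

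Procr stood at 96.4 and 117 CPM in the young pools and at 187 and 201 in the aged pools, with no overlap between ages. Ly6a stood at 164 and 254 CPM in the young pools and at 232 and 355 in the aged pools. Young pool B lay above aged pool A for Ly6a, although the aged pool was higher within each facility, by 1.42-fold at A and 1.4-fold at B. Kit stood at 99.3 and 74.9 CPM in the young pools and at 164 and 71.7 in the aged pools. Aged pool A alone was high for Kit, and aged pool B lay just below young pool B (0.956-fold), so the change had opposite signs at the 2 facilities. The other 6 members kept 1 direction at both facilities. Shares of all genes that kept 1 direction, or whose ages did not overlap, were not counted. With 2 pools per age, neither trait is a test.

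**Figure D1:**
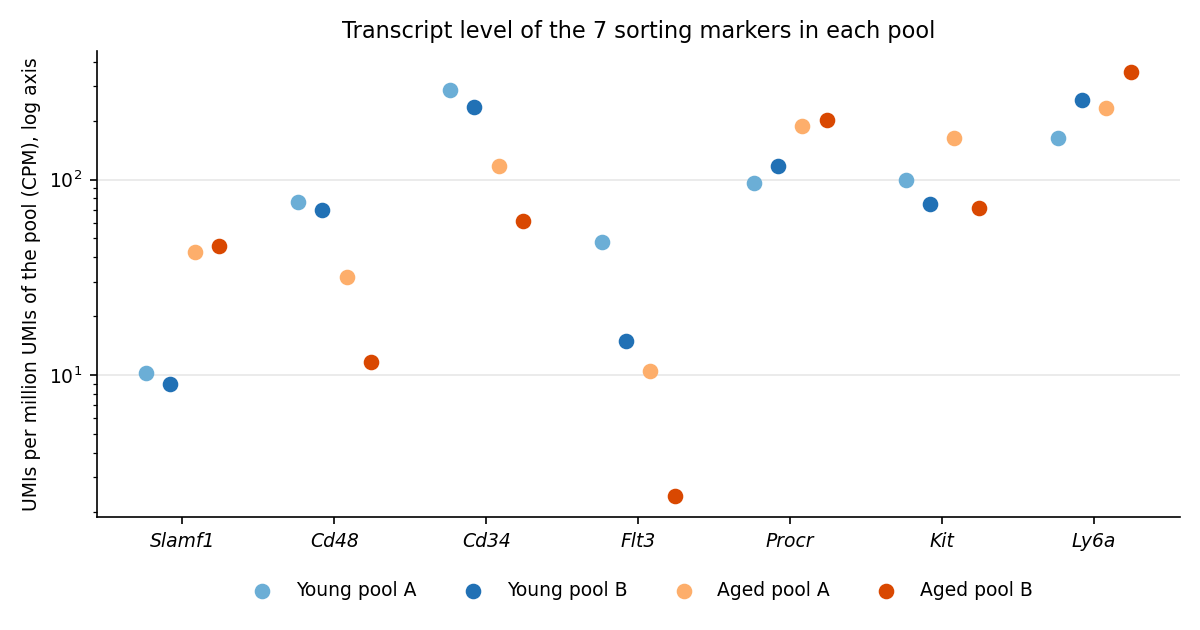
Level of each marker transcript in CPM (log axis), with 1 point per pool. The aged pools lie above the young pools for Slamf1 and Procr and below them for Cd48, Cd34 and Flt3, and the ages overlap for Kit and Ly6a.

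The age difference was tested with edgeR's quasi-likelihood test on summed counts, fitted to the 13555 genes that passed the low-count filter. The facility was a block, so differences between pools that both ages shared at a facility were taken out of the spread. The test called 275 genes at an adjusted p under 0.05 (2.03% of those tested), 217 of them higher in aged HSPCs (1.6%) and 58 lower (0.428%). All 7 members passed the filter and 3 of them were called. Slamf1 rose by 2.13 on the log2 scale (SE 0.19, edgeR adjusted p = 0.0207), Cd34 fell by 1.67 (SE 0.21, edgeR adjusted p = 0.0355) and Flt3 fell by 2.46 (SE 0.19, edgeR adjusted p = 0.0141). The log2 fold change of Cd48 was -1.98 (SE 0.31), with an edgeR adjusted p of 0.0559 and a DESeq2 adjusted p of 5.43e-07. Procr had a log2 fold change of 0.82 (SE 0.17), with an edgeR adjusted p of 0.101 and a DESeq2 adjusted p of 0.0324. Ly6a (0.44, SE 0.19, edgeR adjusted p = 0.352) and Kit (0.28, SE 0.22, edgeR adjusted p = 0.635) were not called. The fit had 1 residual degree of freedom per gene, so the p values lean on the spread that edgeR shares over genes. Without the block edgeR called 0 members (5 at an unadjusted p under 0.05). With 1 pool left out, which leaves no room for the block and takes the lone pool of an age to vary like the other age, edgeR called 0 members without aged pool A (5 at an unadjusted p under 0.05), 0 without aged pool B (3), Slamf1 and Cd48 without young pool A, and Flt3 without young pool B.

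Of the 12 SLAM receptor and adaptor genes listed, 7 were tested, 1 rose (Slamf1) and 1 fell, with a median log2 change of 0.33 beside 0.01 over all genes tested. The gene that fell was Cd244, which encodes a receptor for CD48. It stood at 13.4 and 13.5 CPM in the young pools and at 2.84 and 2.07 in the aged pools, and it fell by 2.52 on the log2 scale (edgeR adjusted p = 0.0157). For both SLAM genes called, Slamf1 and Cd244, the ages did not overlap, a trait that the call itself favours. Among sialomucins and selectins, 8 of 9 genes were tested, 1 rose (Selp) and 1 fell (Cd34), with a median of 0.03. Selp, which encodes P-selectin, stood at 3.70 and 6.04 CPM in the young pools and at 102 and 82.9 in the aged pools (log2 change 4.24, edgeR adjusted p = 0.0112).

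Of the 18 genes of class III receptor tyrosine kinases and their signalling, 16 were tested, 0 rose and 1 fell (Flt3 itself), with a median log2 change of -0.06. The Ly6 family had 7 of 11 genes tested and 0 called (median -0.06), with Ly6d at -1.28 (edgeR adjusted p = 0.0803). The protein C pathway had 7 of 10 tested and 0 called, but its median was 0.71. In that pathway Thbd, which encodes thrombomodulin, had a log2 change of 1.84 (edgeR adjusted p = 0.0902) and Pros1, which encodes protein S, a change of 1.4 (edgeR adjusted p = 0.0676). Of 22 other surface genes that are used or proposed for sorting HSCs, all were tested, 4 rose and 0 fell, with a median of 0.46. The 4 were Selp, Cd38 (3.01, edgeR adjusted p = 0.0217), Neo1 (2.84, edgeR adjusted p = 0.0268) and the integrin gene Itgb3 (2.48, edgeR adjusted p = 0.0141).

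Counted as cells with at least 1 UMI, Slamf1 was found in 6.53% and 5.66% of the cells of the young pools and in 21.5% and 28.6% of those of the aged pools. Cd48 was found in 23.7% and 22.4% of young and 8.47% and 3.95% of aged cells in the same order of pools. Since such shares depend on depth, every cell was also thinned to 3000 UMIs, which left 14685 cells and 0, 50, 176 and 4 cells of young A, young B, aged A and aged B too shallow. After thinning, Slamf1 was found in 3.33%, 2.83%, 11.5% and 13.4% of the cells of young A, young B, aged A and aged B, and Cd48 in 13.4%, 12.9%, 5.39% and 2.12%. The order of the pools was the same at both depths for these 2 genes.

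Thinned shares of Cd34 were 49.5% and 43.0% in the young pools and 24.0% and 15% in the aged pools, and those of Flt3 were 12.7% and 4.24% against 2.73% and 0.699%. Thinned shares of Procr were 26.5% and 30.2% in the young and 41.9% and 45.1% in the aged pools. In each of these genes the ages did not overlap, a trait whose share over all genes was not counted. Kit was found in 26.2% and 21% of young and 39.0% and 19.4% of aged cells, and Ly6a in 36.1% and 50.0% of young and 44.9% and 56.4% of aged cells, so that both gate transcripts overlapped between ages, as their levels did.

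In thinned cells, the number of UMIs in a cell that held the transcript differed less between pools than the share of cells that held it. This number cannot fall below 1 and stays near 1 for a sparse transcript. It therefore cannot tell fewer cells with a transcript from less transcript per cell. A thinned cell with Slamf1 held on average 1.06 UMIs of it in both young pools and 1.09 and 1.10 in the aged pools. A thinned cell with Cd48 held 1.41 and 1.35 UMIs in the young pools and 1.56 and 1.41 in the aged pools, higher in the aged pool at each facility. A thinned cell with Cd34 held 1.71 and 1.55 UMIs in the young and 1.4 and 1.22 in the aged pools, lower in both aged pools. For Procr the values were 1.29 and 1.30 in the young and 1.4 and 1.45 in the aged pools. With all UMIs, the Cd34 values were 2.98 and 2.67 in the young and 1.86 and 1.64 in the aged pools. Those of Procr were 1.55 and 1.69 against 1.90 and 2.38, of Slamf1 1.11 and 1.17 against 1.24 and 1.27, and of Cd48 2.27 and 2.26 against 2.33 and 2.36.

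RNA outside cells can give UMIs to cells that do not express a gene. Cd48, which is expressed by myeloid progenitors, was found at full depth in 52.1%, 62.8%, 26.7% and 87.9% of cells with at least 3 of 5 neutrophil genes in young A, young B, aged A and aged B, and in 6.04%, 7.08%, 2.48% and 0.737% of cells with at least 3 of 5 HSC genes. Cells with neutrophil genes were the deeper in every pool (medians of 7587, 8117, 6169 and 10964 UMIs against 5848, 6183, 5741 and 7587), and aged B held 33 of them. After thinning, the shares with Cd48 were 32.9%, 38.4%, 19.9% and 51.5% against 2.53%, 2.95%, 1.08% and 0.268%. The 2 groups did not overlap at either depth. Flt3 was found in 4.17% of 120 and 2.70% of 37 cells with at least 3 of 5 erythroid genes (median 6810 UMIs) in the young pools. In the aged pools it was found in 0 of 44 and 0 of 42 such cells. Taking 3 cells as the limit, this allows a share of up to 6.82% and 7.14% with a UMI. The shares of Flt3 over all cells at full depth were 23.7% and 9.80% in the young pools and 5.65% and 1.88% in the aged pools. That of young pool A lay well above these levels. Those of young pool B and of the aged pools cannot be set above a background known from so few cells. Procr was found in 62.2% to 82.5% of HSC-gene cells of a pool and in 7.14% to 15.9% of erythroid-gene cells, and Ly6a in 67.6% to 88.6% and in 15.9% to 19.2%. For Slamf1, no group with enough cells was low in every pool, so its background stayed unknown. Neutrophil-gene cells held it in 4.46%, 0.885%, 15.6% and 9.09% of young A, young B, aged A and aged B. In HSC-gene cells it was found in 10.7%, 8.55%, 26.1% and 34.9%.

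In single cells, the SLAM pair split between the ages as its pooled levels did. Cells with Slamf1 and no Cd48 (Slamf1-only cells) made up 3.03% (95% exact binomial interval 2.58 to 3.53) and 2.69% (2.05 to 3.46) of thinned young cells, pool A first, and 11.3% (10.2 to 12.5) and 13.3% (12.2 to 14.3) of thinned aged cells. Cells with Cd48 and no Slamf1 (Cd48-only cells) made up 13% (12.1 to 14.0), 12.8% (11.4 to 14.2), 5.17% (4.42 to 6.00) and 2.00% (1.60 to 2.47) in the same order. These intervals cover counting error only. The aged minus young difference was 9.43 percentage points for Slamf1-only cells (8.30 at facility A and 10.6 at facility B) and -9.32 for Cd48-only cells (-7.88 at A and -10.8 at B). With 2 pools per age, the exact permutation test gave p = 0.333 for each, which is the smallest p this design allows.

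As the 2 differences had opposite signs and like sizes, the share of cells with neither transcript was 83.6% and 84.4% in the young pools and 83.3% and 84.6% in the aged pools. Cells with both made up 0.308%, 0.137%, 0.222% and 0.120%. In young pool A 677 Cd48-only cells stood against 157 Slamf1-only cells, and in young pool B 280 against 59. In aged pool A 163 Cd48-only cells stood against 357 Slamf1-only cells, and in aged pool B 83 against 550. Cd48-only cells thus outnumbered Slamf1-only cells in both young pools, and Slamf1-only cells outnumbered Cd48-only cells in both aged pools.

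Procr and Cd34 gave a pair of shares of the same form. Cells with Procr and no Cd34 made up 14.2% and 17.5% of the young pools and 33.1% and 39.5% of the aged pools (difference 20.4 points). Cells with Cd34 and no Procr made up 37.2% and 30.4% of the young and 15.2% and 9.37% of the aged pools (difference -21.5 points). Cells with Procr and Slamf1 and no Cd48, the transcripts of a common surface definition of long-term HSCs, made up 0.867% and 0.957% of the young and 5.08% and 6.46% of the aged pools. In none of these combinations did the ages overlap.

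**Figure D2:**
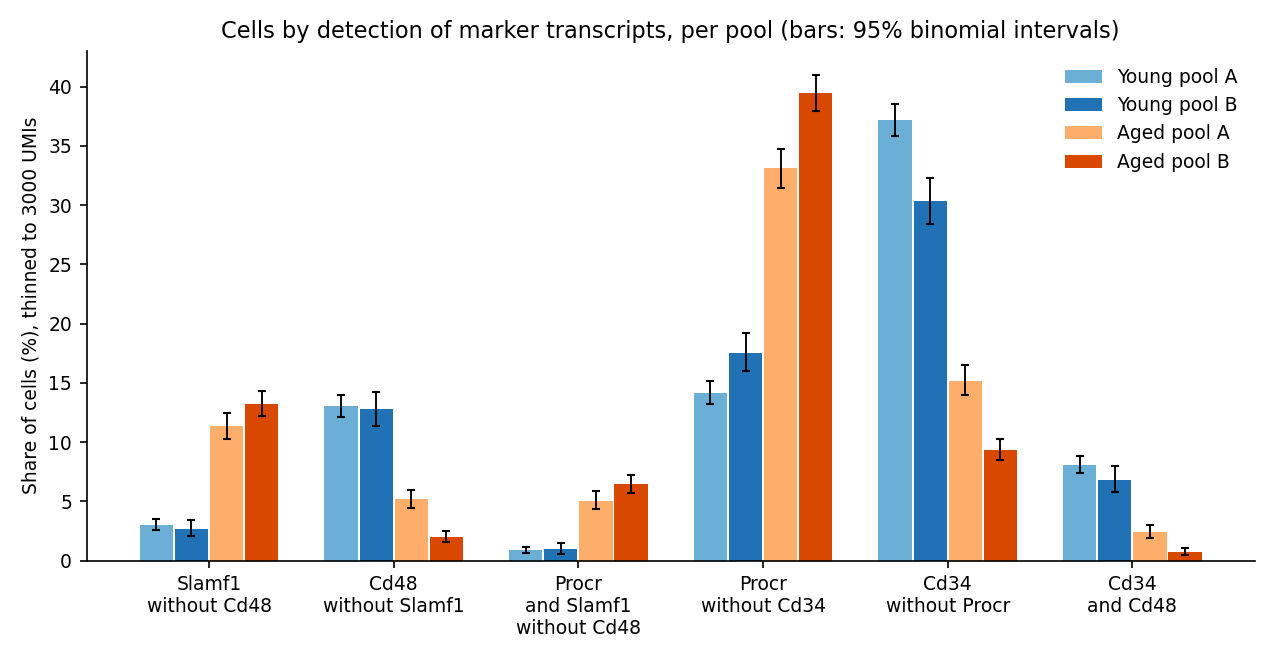
Share of cells (%) of each pool in 6 combinations of detected marker transcripts, after thinning each cell to 3000 UMIs, with 95% binomial intervals. Slamf1 without Cd48 and Procr without Cd34 are taller in the aged pools, and Cd48 without Slamf1, Cd34 without Procr and Cd34 with Cd48 are taller in the young pools.

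Co-detection of pairs in the same thinned cell was described by the odds ratio within each pool, so that the ages do not enter the comparison. Slamf1 and Cd48 met in 16, 3, 7 and 5 cells of young A, young B, aged A and aged B, where independence within the pool gives 23.1, 8.0, 19.6 and 11.8. Fewer cells than this held both in every pool, and the mean log2 odds ratio was -1.19 (SD over pools 0.430). Slamf1 and Cd34 also met less often than independence gives in all 4 pools (-0.92), and Slamf1 and Flt3 had a mean of -1.44 (SD 0.828), with 0 cells holding both in young pool B where 2.63 would be given, but of -0.72 with another random thinning and -0.59 with all UMIs. The lowest value of all 21 pairs belonged to Cd48 and Procr (-2.18, SD 0.845), and that of Cd48 and Ly6a was -1.64 (SD 0.911). With another random thinning Slamf1 and Cd48 had -1.82, Cd48 and Ly6a -1.60 and Cd48 and Procr -2.47. Among cells with Cd48, 11.8% and 12% held Procr in the young pools and 17.1% and 6.82% in the aged pools. Among cells without Cd48 these shares were 28.8%, 32.9%, 43.3% and 46.0%.

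Other pairs met more often than independence gives. Cd34 and Flt3 had a mean log2 odds ratio of 1.27 (SD 0.446), Cd48 and Cd34 of 1.13 (SD 0.498) and Cd48 and Flt3 of 1.08 (SD 1.09), and the HSC markers Procr and Ly6a of 0.74 (SD 0.146). Cd48 and Flt3 met in only 8 and 3 aged cells, where independence gives 4.64 and 0.615. Their mean was 0.72 with another random thinning. Slamf1 and Procr had 0.22 (SD 0.0459), above 0 in all 4 pools, and 0.46 with all UMIs. Cd34 and Procr had -0.32, below 0 in all 4 pools, and -0.0723 with all UMIs. Kit had a mean of -0.44 with Cd48 and means between 0.02 and 0.08 with the other 5 members, and with all UMIs between 0.0204 (with Cd48) and 0.46 (with Cd34). These values are descriptions, since cells of a pool share its free RNA and the counts are sparse.

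**Figure D3:**
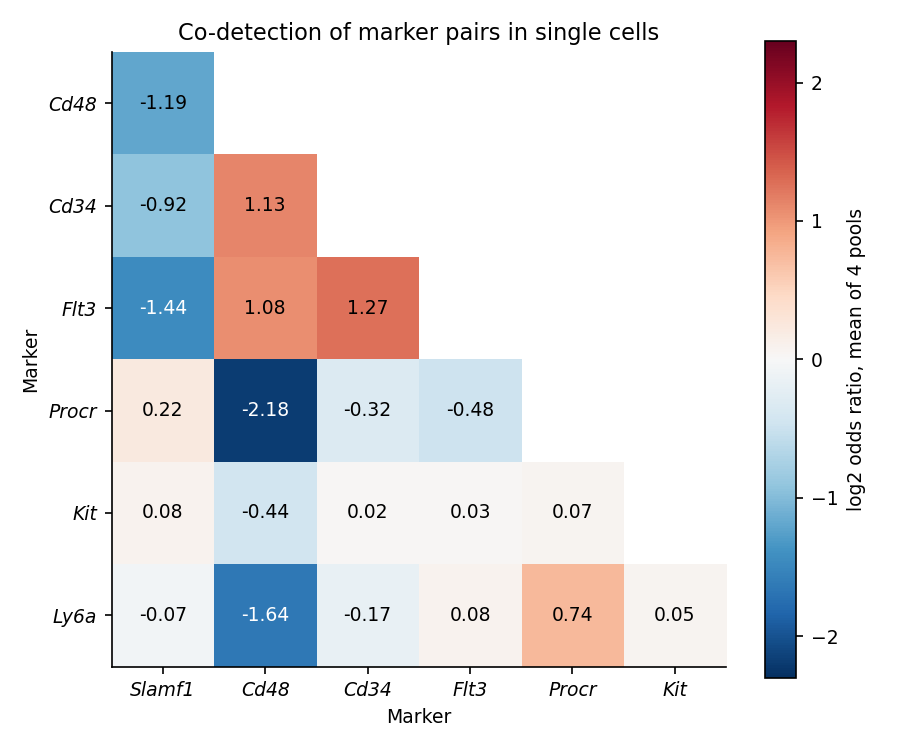
Mean over the 4 pools of the log2 odds ratio for finding both transcripts of a pair in the same thinned cell (blue below 0, red above 0). Cd48 has its lowest values with Procr (-2.18) and Ly6a (-1.64), and Cd34, Cd48 and Flt3 are above 1 with each other in this thinning (Cd48 with Flt3 0.72 in another).

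Of the 128 possible combinations of the 7 transcripts, 97 were seen, and 0 thinned cells held all 7. A cell held on average 1.68, 1.64, 1.69 and 1.52 of the 7 in young A, young B, aged A and aged B. The commonest combination was none of the 7 (mean over pools 13.4%), then Ly6a alone (10.9%). Procr with Ly6a and nothing else made up 4.09% and 8.25% of the young pools and 9.26% and 16.7% of the aged pools. Cd34 alone made up 12% and 9.02% of the young and 3.71% and 3.49% of the aged pools.

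Slamf1-only and Cd48-only cells of the same pool were then compared in all other genes, with the pool as a block and Slamf1 and Cd48 left out. The edgeR test called 1484 of 6457 genes (23%), 692 higher in Slamf1-only cells (10.7%) and 792 lower (12.3%). Of the other 5 members, 2 were called higher and 2 lower. Procr stood at 132, 169, 203 and 243 CPM in Slamf1-only cells of young A, young B, aged A and aged B and at 40.4, 51.2, 65.4 and 28.1 in Cd48-only cells (log2 difference 1.89, SE 0.18, edgeR adjusted p = 1.03e-07). Ly6a stood at 174, 294, 260 and 427 CPM against 118, 182, 100.2 and 80.3 (1.16, SE 0.19, edgeR adjusted p = 8.40e-05). Both HSC markers were higher in Slamf1-only cells in all 4 pools.

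Cd34 stood at 159, 90.4, 80.3 and 33.3 CPM in Slamf1-only cells and at 400, 294, 299 and 197 in Cd48-only cells (log2 difference -1.79, SE 0.16, edgeR adjusted p = 4.62e-08). Flt3 stood at 27.6, 0, 2.80 and 1.21 CPM against 70.9, 15.5, 20.4 and 12 (-1.89, SE 0.38, edgeR adjusted p = 8.37e-04). Both were lower in Slamf1-only cells in all 4 pools. Outside young pool A the Flt3 values rest on few UMIs, young pool B holding 59 Slamf1-only cells and aged pool B 83 Cd48-only cells. Kit was higher in Slamf1-only cells in all 4 pools by a smaller size (0.38, SE 0.15, edgeR adjusted p = 0.0832), and was called with all UMIs of each cell (edgeR adjusted p = 0.00500) and with another random thinning (edgeR adjusted p = 0.0244).

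Many genes outside the marker set differed as well. Of the HSC genes listed, 11 were tested, 10 were higher in Slamf1-only cells and 0 lower, with a median log2 difference of 1.35 beside 0.02 over all genes tested. They included Vwf (3.02), which encodes von Willebrand factor, and the transcriptional regulators Mllt3 (2.43), Mecom (2.26) and Nkx2-3 (2.02). Of 9 neutrophil and monocyte genes tested, 8 were lower and 0 higher (median -5.46), among them the Fc receptor gene Fcgr3 (-6.57) and the granule protein genes Ctsg (-5.92), Mpo (-5.62) and Elane (-5.48). All 12 cell division genes were lower (median -1.54). Over all genes, the largest positive differences belonged to the imprinted noncoding RNA Meg3 (4.13), Sult1a1 (3.11), the cell cycle inhibitor Cdkn1c (3.04), Vwf and Cracr2b (2.91). The largest negative ones belonged to Fcer1a (-8.31), Clec12a (-8.16), Prss34 (-7.48), Cd200r3 (-7.45) and Mcpt8 (-7.19), of which Fcer1a, Prss34, Cd200r3 and Mcpt8 are known from basophils and mast cells.

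Relatives of the members also differed between the classes. Cd244 was lower in Slamf1-only cells (-3.82) and the SLAM receptor gene Cd84 higher (0.52, edgeR adjusted p = 0.027), these being the only SLAM genes tested beside the pair itself. Selp (1.95) and the sialomucin gene Emcn (1.24) were higher, Emcn in all 4 pools and Selp in 3 (in young pool B 5.65 CPM against 7.14). Ly6c2 was lower (-5.86), Socs2 was higher (2.27), and in the protein C pathway F2rl3 was higher with Procr (1.03), in 3 of 4 pools (in young pool B 11.3 CPM against 22.6). Of 13 other sort markers tested, 6 were higher and 3 lower. In aged pool B the immunoglobulin transcript Igkc stood at 12426 CPM in Cd48-only and 75.2 in Slamf1-only cells. Without cells that held at least 2 of 5 B and plasma cell genes it stood at 84.4 CPM in Cd48-only and 76.0 in Slamf1-only cells of that pool, 1271 genes were called, and Procr (1.94), Ly6a (1.30) and Cd34 (-1.76) were still called.

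The difference of the age change between the classes was called for 6 of 7708 genes (0.0778%) and for 0 of the members. Cd34 had a difference of -0.72 (SE 0.26, edgeR adjusted p = 0.529) and Ly6a of 1.18 (SE 0.28, edgeR adjusted p = 0.230). Both passed with all UMIs of each cell (edgeR adjusted p = 0.0127 for Cd34 and 0.00235 for Ly6a). Procr (0.37), Kit (0.11) and Flt3 (-1.46) had edgeR adjusted p values of 0.880, 0.981 and 0.757.

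Within Slamf1-only cells 97 of 7286 genes were called upon aging (1.33%). Of the 4 members tested there, Cd34 was the 1 called, with a log2 fold change of -1.17 (SE 0.29, edgeR adjusted p = 0.0102), and this call was lost with DESeq2 (adjusted p = 0.99978), without the low-count filter (edgeR adjusted p = 0.104) and without the block (edgeR adjusted p = 0.99974). Procr (0.56), Ly6a (0.55) and Kit (0.40) had edgeR adjusted p values of 0.714, 0.753 and 0.944. Within Cd48-only cells 4 of 6649 genes were called (0.0602%) and 0 of 5 members, each with an edgeR adjusted p of 0.99967, and Cd34 had a log2 fold change of -0.51. Within cells that held neither transcript, 48 of 12131 genes were called (0.396%). In these cells Flt3 fell by 2.46 (SE 0.23, edgeR adjusted p = 0.0433), and Cd34 had a log2 fold change of -1.62 (SE 0.18, edgeR adjusted p = 0.0530) that passed with DESeq2 (adjusted p = 2.88e-06), without the low-count filter (edgeR adjusted p = 0.0027) and with all UMIs (edgeR adjusted p = 0.0278). Without the block edgeR called 0 genes in each of the 3 classes, where 162, 113 and 708 genes had an unadjusted p under 0.05.

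**Figure D4:**
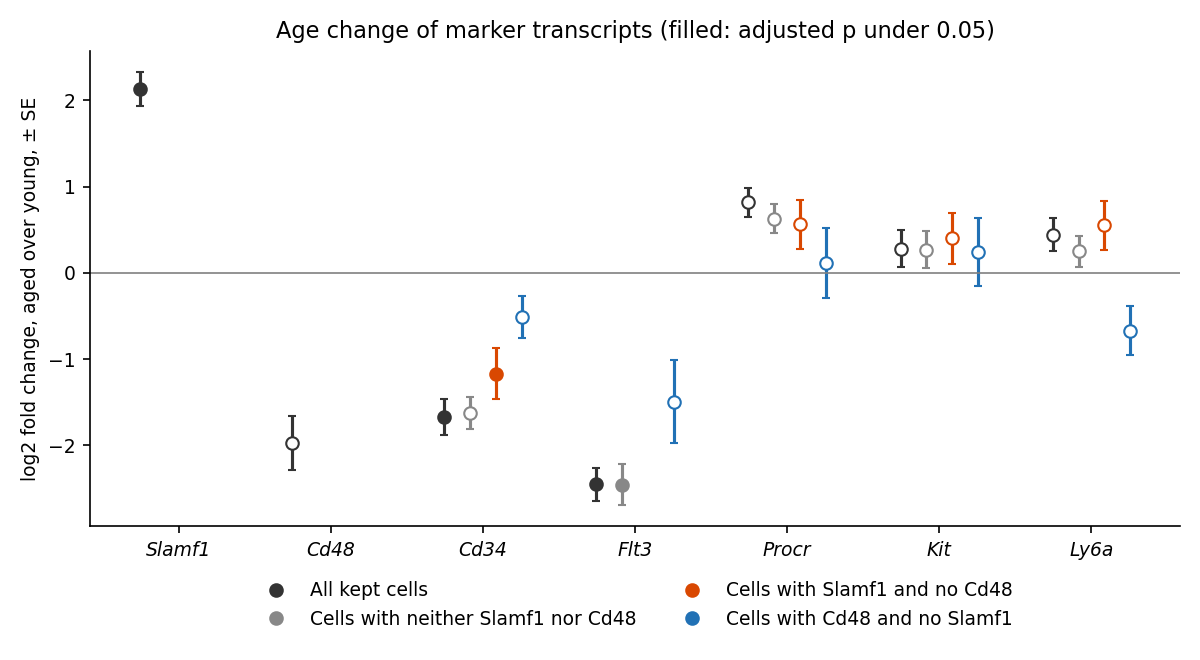
Log2 fold change (aged over young, ± SE) of each marker transcript over all kept cells and within cells split by Slamf1 and Cd48 detection. Filled points passed the test: Slamf1, Cd34 and Flt3 over all cells, Cd34 in Slamf1-only cells (lost with DESeq2) and Flt3 in cells with neither, where Cd34 passed with DESeq2.

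To describe the members across lineages they did not define, cells were grouped by 5 genes each of HSCs, megakaryocyte, erythroid and neutrophil lineages and cell division, and cells with at least 3 of the 5 genes of exactly 1 list were set against the 7778 cells that met no list. Of 9747 genes tested, edgeR called 2.1% in the 3593 HSC-gene cells, 16% in the 302 megakaryocyte-gene cells, 39.2% in the 243 erythroid-gene cells, 23.9% in the 685 neutrophil-gene cells and 40.5% in the 614 division-gene cells. Over the 5 groups, 20 of 35 member comparisons were called. Mast cell (38 cells), lymphoid (9) and B and plasma cell (63) lists left too few cells.

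Cd48 had the widest range. It stood at 15.3, 18.8, 4.37 and 0.903 CPM in HSC-gene cells of young A, young B, aged A and aged B, at 180, 206, 150 and 318 in neutrophil-gene cells, and at 44.2, 45.5, 16.4 and 5.55 in cells of no list. Of these 3 groups, neutrophil-gene cells were the highest and HSC-gene cells the lowest in every pool. The neutrophil-gene cells were not alike in all pools. At full depth 30.4%, 31.0%, 53.3% and 27.3% of them held Procr and 52.1%, 62.8%, 26.7% and 87.9% held Cd48, in the same order. Prtn3, a gene of their list, was not called between Slamf1-only and Cd48-only cells (0.08, edgeR adjusted p = 0.668). The log2 difference to cells of no list was -1.77 (SE 0.39, edgeR adjusted p = 0.0107) for HSC-gene, 2.84 (SE 0.29, edgeR adjusted p = 4.60e-09) for neutrophil-gene, 2.04 for erythroid-gene and 1.46 for division-gene cells, all called, and 0.24 for megakaryocyte-gene cells, not called.

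Slamf1 varied less across lineages. It stood at 18.1, 14.3, 53.7 and 51.3 CPM in HSC-gene cells and at 10.0, 9.41, 41.2 and 48.3 in cells of no list (log2 difference 0.36, not called). In erythroid-gene cells it stood at 20.8, 11.4, 22.9 and 21.2 CPM, with a log2 difference of 0.00. It was lower in division-gene (-0.74, edgeR adjusted p = 0.00783) and neutrophil-gene cells (-0.97, edgeR adjusted p = 0.00524), and the second call was lost when 2 of the 5 genes sufficed (edgeR adjusted p = 0.439). Both aged pools were above both young pools in HSC-gene cells and in cells of no list, whereas in erythroid-gene cells young pool A lay close to the aged pools. The age difference within these groups was not tested.

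Procr and Ly6a had the same order of lineages. Both were called lower in megakaryocyte-gene (-1.34 for Procr and -1.13 for Ly6a), erythroid-gene (-3.03 and -2.31), neutrophil-gene (-1.04 and -0.74) and division-gene cells (-1.91 and -1.50), and neither was called in HSC-gene cells (0.30 and 0.10). Cd34 was higher in neutrophil-gene (0.89), lower in erythroid-gene (-1.89) and lower in HSC-gene cells (-0.56, edgeR adjusted p = 0.0258). Flt3 was lower in erythroid-gene (-3.35), megakaryocyte-gene (-1.41) and HSC-gene cells (-0.62, edgeR adjusted p = 0.0145). The 3 calls in HSC-gene cells (Cd48, Cd34 and Flt3) were each lost without young pool A, without young pool B or without aged pool A (edgeR adjusted p of 0.0570 to 0.213). Kit was called in 0 of the 5 groups, with log2 differences between -0.32 and 0.08.

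**Figure D5:**
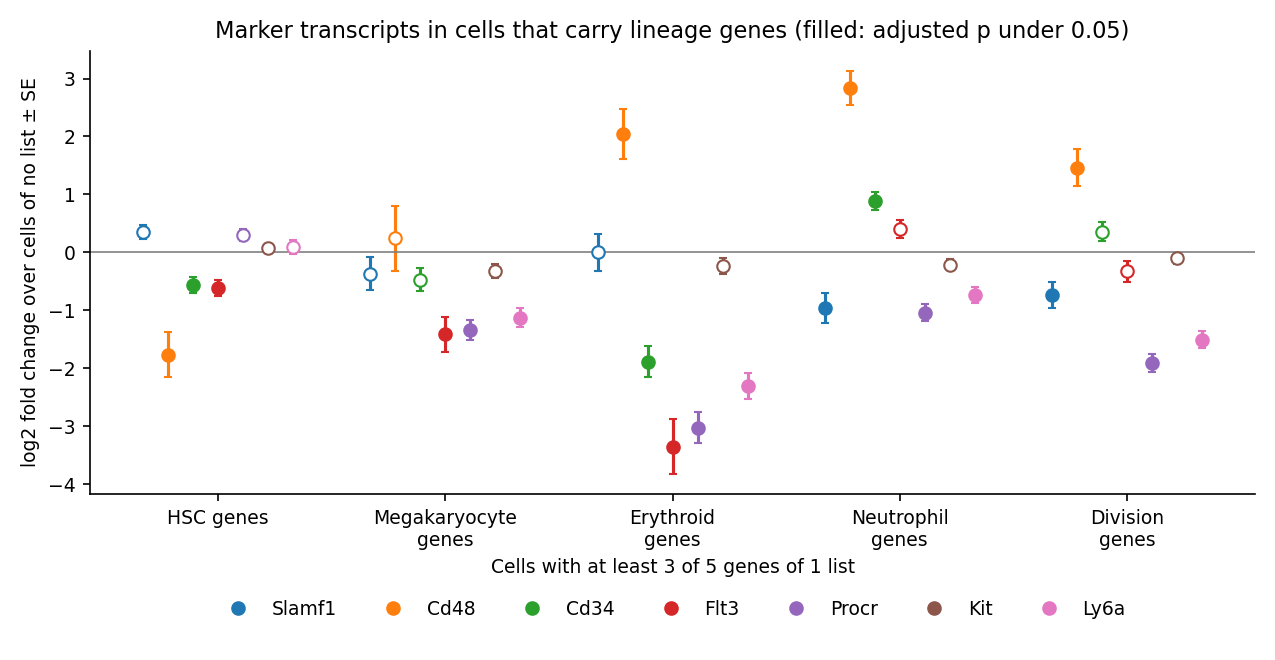
Log2 fold change (± SE) of each marker transcript in cells that hold at least 3 of 5 genes of 1 list, over cells of no list; filled points have an adjusted p under 0.05. Cd48 runs from -1.77 in HSC-gene cells to 2.84 in neutrophil-gene cells, and Kit lies between -0.32 and 0.08.

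Across thinned cells within pools, the genes most like each member were sought among the 4779 genes found in at least 5% of the cells of every pool, as a mean Pearson r over the 4 pools of at least 0.15. Cd48 was most like Plac8 (0.409), Nkg7 (0.309) and Lgals1 (0.247). Cd34 was most like Serpinb1a (0.171), H2afy (0.166) and Plac8 (0.152), Procr most like Ifitm1 (0.253), Ftl1 (0.196) and Malat1 (0.194), and Ly6a most like Ifitm1 (0.233), Ifitm3 (0.215) and Cd74 (0.212). Plac8 thus stood beside both Cd48 and Cd34, and Ifitm1 beside both Procr and Ly6a. Slamf1, Flt3 and Kit had no gene at 0.15. These correlations run across cells of 1 library at a time, which share its depth and free RNA, and are weak.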

How the data were processed

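Counts of UMIs per gene and cell were deposited by the authors, who made them with Cell Ranger 2.2.0 on mm10 (GRCm38.p4, per the labels). By the paper, young A and aged B were sequenced to fewer reads per cell than aged A and young B. The aged pool thus had more reads per cell than the young pool at facility A and fewer at facility B. Ages follow sample titles and source names; the free-text notes of 2 pools (young B, aged A) contradict these. The letter was taken as the replicate number: deviations of same-letter pools from their age means correlated at 0.576 over 13555 genes, and each letter marks a shared facility.

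Cells within 2 SD of the pool's mean log UMI count were kept, as the authors did, and no doublet caller was run. Counts were summed per pool or per pool and cell class and tested with edgeR 4.0.16 (R 4.3.3; TMM, filterByExpr, quasi-likelihood, Benjamini-Hochberg at 0.05), with DESeq2 1.42.0 as an alternative, and the test steps were tested on simulated data. There edgeR found 89 of 89 genes changed 2-fold upon aging, 46 of 76 between classes and 12 of 89 for class by age. Of genes changed 4-fold it found 111 of 111, 74 of 75 and 33 of 86. The spread is what is left between pools of mice after the block. In the age fits a gene's own part of it is how far its age change differed between facilities. edgeR moderates the spread of each gene with that of all genes, so an SE does not rest on the gene's own pools alone. In the class and lineage fits it is how far the difference between cell groups varied over pools. SE is the log2 fold change divided by the root of F. For detection and classes, cells were thinned to 3000 UMIs with 1 seed (Python 3.11.15, numpy 2.4.6, scipy 1.17.1). Odds ratios had 0.5 added to each count. Named were all members, in each list up to 4 genes with the largest change, the 5 largest class differences of each sign with 1 direction in all pools, and up to 3 genes most like a member. Members and lists were chosen with earlier results of these data known. Alternatives were DESeq2, no low-count filter, no replicate block, no thinning, 2000 UMIs, another seed, 2 of 5 list genes, leaving out each pool, the top 5% of cells by UMIs, dividing cells or cells with B and plasma cell genes, and, chosen after seeing the data, cells with B cell genes alone, and cells with B and plasma cell genes in the class comparison. Sequences came from RefSeq (GRCm38.p6, 6 of 7 members matched) and positions from GENCODE M21 (GRCm38).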

Additional observations from a re-analysis of the deposited data

Results flagged for a closer look

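Kit moved differently at the 2 facilities. Its level changed by 0.72 on the log2 scale from young to aged at facility A and by -0.065 at facility B. With 1 pool per age at each facility, this difference was not tested. Reads per cell also differed in opposite ways, the aged pool having more than the young pool at facility A and fewer at facility B. Its part in the Kit values was not tested. Kit protein was part of the sort gate, and the level of aged pool A (164 CPM) stood apart from the 71.7 to 99.3 CPM of the other 3 pools.

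The change upon aging differed between Slamf1-only and Cd48-only cells for 2 listed genes that are not members, by edgeR's test of the class by age term. Plac8, the gene most like Cd48 across cells, had a difference of -1.48 on the log2 scale (edgeR adjusted p = 0.00234). Car1, which encodes an erythroid carbonic anhydrase, had a difference of -2.39 (edgeR adjusted p = 0.00451). In Slamf1-only cells, the CPM of both genes was lower in the aged than in the young pool at each facility. In Cd48-only cells neither gene fell. There Car1 was higher in the aged pool at each facility, and Plac8 was nearly level at facility A and higher in the aged pool at facility B.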

How the results depend on the processing

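Of the 275 genes called upon aging, the count became 543 with DESeq2, 774 without the low-count filter, 563 without the 5% of cells with most UMIs and 589 without dividing cells, and 0 to 287 when 1 pool was left out, fitted without the block (0 without aged pool B, where 1040 genes had an unadjusted p under 0.05, 4 without aged pool A). Members called, 3 in the report, numbered 5 with DESeq2 and 0 to 2 with 1 pool left out. Without the replicate block edgeR called 0 genes (1103 at an unadjusted p under 0.05) and 0 members (5) upon aging, 432 genes between classes, 0 for class by age (104), 0 within Slamf1-only (162), 0 within Cd48-only (113) and 0 within cells with neither (708), and 6 members in lineage groups in place of 20 (17 to 23 with 1 pool left out). The adjusted p without the block was 0.131 for Slamf1, 0.200 for Cd34 and 0.462 for Flt3, and Cd48 passed in 6 of 13 alternatives. Genes called between classes were 846 with DESeq2, 3510 with all UMIs, 815 at 2000 UMIs and 941 to 1467 with 1 pool left out (941 without aged pool A), and 1484 in the report. For class by age (6) they were 19 without the filter and 234 with all UMIs. Within Slamf1-only cells (97) they were 4 with DESeq2 and 212 with all UMIs. Within Cd48-only cells (4) they were 54 without the filter and 40 with all UMIs, and within cells with neither (48) 205, 427 and 262 with DESeq2, without the filter and with all UMIs. The cause was not tested.

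The log2 change of Slamf1 ran from 1.92 to 2.35, of Cd34 from -1.98 to -1.38, of Flt3 from -3.55 (without aged pool A) to -1.51 (without young pool A), of Cd48 from -2.54 to -1.43 and of Procr from 0.57 to 1.06 over all alternatives. Signs turned for Kit upon aging (-0.16 without aged pool A to 0.70 without aged pool B), its share of cells (-4.17 to 15.4 points, same pools) and Ly6a upon aging (-0.0899 without aged pool B to 0.92 without young pool B), and for Procr within Cd48-only cells with DESeq2 (-0.0198), Cd48 in megakaryocyte-gene cells with 2 of 5 genes (-0.27) or without a pool (-0.0443 without young pool A to 0.51 without young pool B), and Cd48 with Kit in co-detection with all UMIs (0.0204). Co-detection means near 0 also turned: Slamf1 with Ly6a (0.23) and Cd34 with Ly6a (0.21) with all UMIs, Flt3 with Ly6a (-0.10) with another seed, and Flt3 with Kit (-0.0111 with another seed, -0.0102 without dividing cells). Of 84 co-detection values under alternatives, 15 moved by more than the SD over pools. Slamf1 in erythroid-gene cells, 0.00 in the report, took -0.18 with 2 of 5 genes, -0.13 without the filter, -0.40 without the block and -0.74 (without young pool A) to 0.43 (without aged pool B) with 1 pool left out. The Slamf1-only difference ran from 6.08 (2000 UMIs) to 19.0 points (all UMIs) and the Cd48-only difference from -6.74 to -16.9. At 3000 UMIs a cell without a UMI may still hold the transcript, so class shares depend on depth.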

Other observations

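Of 13 neutrophil and monocyte genes tested upon aging, 0 rose and 3 fell, beside 0.428% lower over all genes, with a median log2 change of -0.84: Plac8 (-1.83, edgeR adjusted p = 0.0383), the cytokine receptor gene Csf2rb (-1.83, edgeR adjusted p = 0.0367) and the myeloid regulator Cebpa (-1.59, edgeR adjusted p = 0.0346). The list did not move as 1. Prtn3, not called, was higher in aged pools at both facilities (log2 change 0.90, edgeR adjusted p = 0.147). Elane, not called either, changed by 0.53 at facility A and by -1.97 at facility B. Of 9 lymphoid genes tested, 0 rose and 2 fell (median -1.27): Dntt, the terminal transferase of early lymphoid cells (-4.06, edgeR adjusted p = 0.0141), and Cd52 (-2.17, edgeR adjusted p = 0.0374). Of 15 HSC genes tested, 1 rose (Vwf, 2.81, edgeR adjusted p = 0.010) and 0 fell, with a median of 0.60. Of the 12 erythroid and megakaryocyte genes and the 12 cell division genes tested, 0 were called, with medians of 0.31 and -0.73 beside 0.01 over all genes.

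A single cell of aged pool B held 109 Ly6a UMIs, where the next highest cell of that pool held 43 and the highest cells of young A, young B and aged A held 21, 17 and 26.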
